A study of Homo sapiens with 4 samples.

Results

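The locus described here lies on chromosome 10 and holds TSPAN15 (69451465 to 69549508, build hg38) and SRGN (69087603 to 69104811), which lie 347 kb apart. Its members are the cohesin loops in the 4 deposited lists with an anchor on either gene or within 250 kb of it. These are 54 of the 41846 loops listed in any library, and 18 of the 9529 loops listed in all 4. The locus was picked by its contact counts, as a place higher under both drugs, so its ratios of drug to vehicle are a description with no test. The libraries come from GM12878, a B lymphoblastoid line transformed by Epstein-Barr virus, although the sample titles name another line. SMC1 HiChIP was used, which precipitates a cohesin subunit after proximity ligation and so counts contacts between pairs of 5 kb bins. One culture was labelled as given 0.4 µM aphidicolin (APH) for 18 h, with DMSO as its control, and 1 was given 0.2 mM hydroxyurea (HU) for 18 h, with water (H2O) as its control. Each of these 4 groups holds 1 library, so every difference is one between single libraries and was not tested against the spread of replicates. Every interval is a 95% exact binomial interval that covers counting error only.

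TSPAN15 encodes a tetraspanin, a membrane protein that escorts the protease ADAM10 to the cell surface, where ADAM10 sheds the outer parts of other membrane proteins. SRGN encodes serglycin, a proteoglycan that packs proteases and chemokines into the secretory granules of blood cells. Cohesin extrudes loops of chromatin that often stop at sites bound by CTCF, and such loops can bring promoters close to distant elements. Aphidicolin inhibits replicative DNA polymerases, and hydroxyurea lowers the supply of deoxynucleotides.

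The promoters of TSPAN15, FAM241B and KIFBP, genes at loop ends, are shown because the anchors can be placed against them. The sequences used held no promoter of SRGN, and the anchor bins themselves were not searched for CTCF sites. Each stretch holds the 250 bases before the gene's start, 5′ to 3′ on the plus strand, from RefSeq on GRCh38.p14, the build hg38. Capitals mark AGGGGGC on either strand, a stretch of many CTCF sites, which 13.3% of 34788 promoters of this length hold.
TSPAN15, chr10:69451215-69451464: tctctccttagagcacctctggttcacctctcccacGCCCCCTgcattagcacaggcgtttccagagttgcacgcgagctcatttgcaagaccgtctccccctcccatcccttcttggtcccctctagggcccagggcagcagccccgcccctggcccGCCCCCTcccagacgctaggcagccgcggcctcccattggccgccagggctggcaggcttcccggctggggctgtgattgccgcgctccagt
FAM241B, chr10:69629997-69630246: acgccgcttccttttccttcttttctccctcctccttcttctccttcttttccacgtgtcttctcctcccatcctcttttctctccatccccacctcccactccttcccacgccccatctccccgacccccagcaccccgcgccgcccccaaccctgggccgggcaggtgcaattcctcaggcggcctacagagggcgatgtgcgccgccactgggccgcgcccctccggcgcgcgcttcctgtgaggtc
KIFBP, chr10:68988553-68988802: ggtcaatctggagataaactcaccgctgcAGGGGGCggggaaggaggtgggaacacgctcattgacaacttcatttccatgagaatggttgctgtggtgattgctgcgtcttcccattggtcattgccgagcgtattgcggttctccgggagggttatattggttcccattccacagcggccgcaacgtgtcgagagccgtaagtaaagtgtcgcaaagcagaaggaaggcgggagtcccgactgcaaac

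The TSPAN15 promoter holds these letters in 2 places, that of KIFBP in 1 and that of FAM241B in none. A GC box (GGGCGG, either strand) occurs 2 times at TSPAN15 and 1 time each at FAM241B and KIFBP, and 42.6% of promoters hold one. At TSPAN15 1 of them shares bases with a marked stretch, as does the only GC box at KIFBP. CCAAT on either strand occurs 1 time at TSPAN15, 2 times at KIFBP and not at FAM241B, against 32% of promoters, and TATAAA in none of the 3, against 10.8%. G and C make up 67.6% of the TSPAN15 stretch, 66% at FAM241B and 54.8% at KIFBP, where the median promoter has 58%. A match of letters is a description and not a site.

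The TSPAN15 promoter lies in the bin 69450001 to 69455000, which was a listed anchor in APH alone, with 17 counts to the bin 55 kb to its right. The anchors that carried the counts lay inside the gene, in 3 neighbouring bins from 69505001 to 69520000, or 53.5 to 68.5 kb past the gene's start. The 7 loops of TSPAN15 listed in all 4 libraries all ended there, so they share anchors and are not independent. At SRGN the anchors ran from the gene's start into its body, in 3 bins from 69085001 to 69100000, and each of its 4 loops listed in all 4 libraries ended in KIFBP, a kinesin-binding protein gene. These 4 loops met KIFBP in 2 bins from 69000001 to 69010000, to the right of its promoter. The bin that holds the KIFBP promoter, 68985001 to 68990000, was a listed anchor in DMSO alone, with 14 counts to SRGN.

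**Figure D1:**
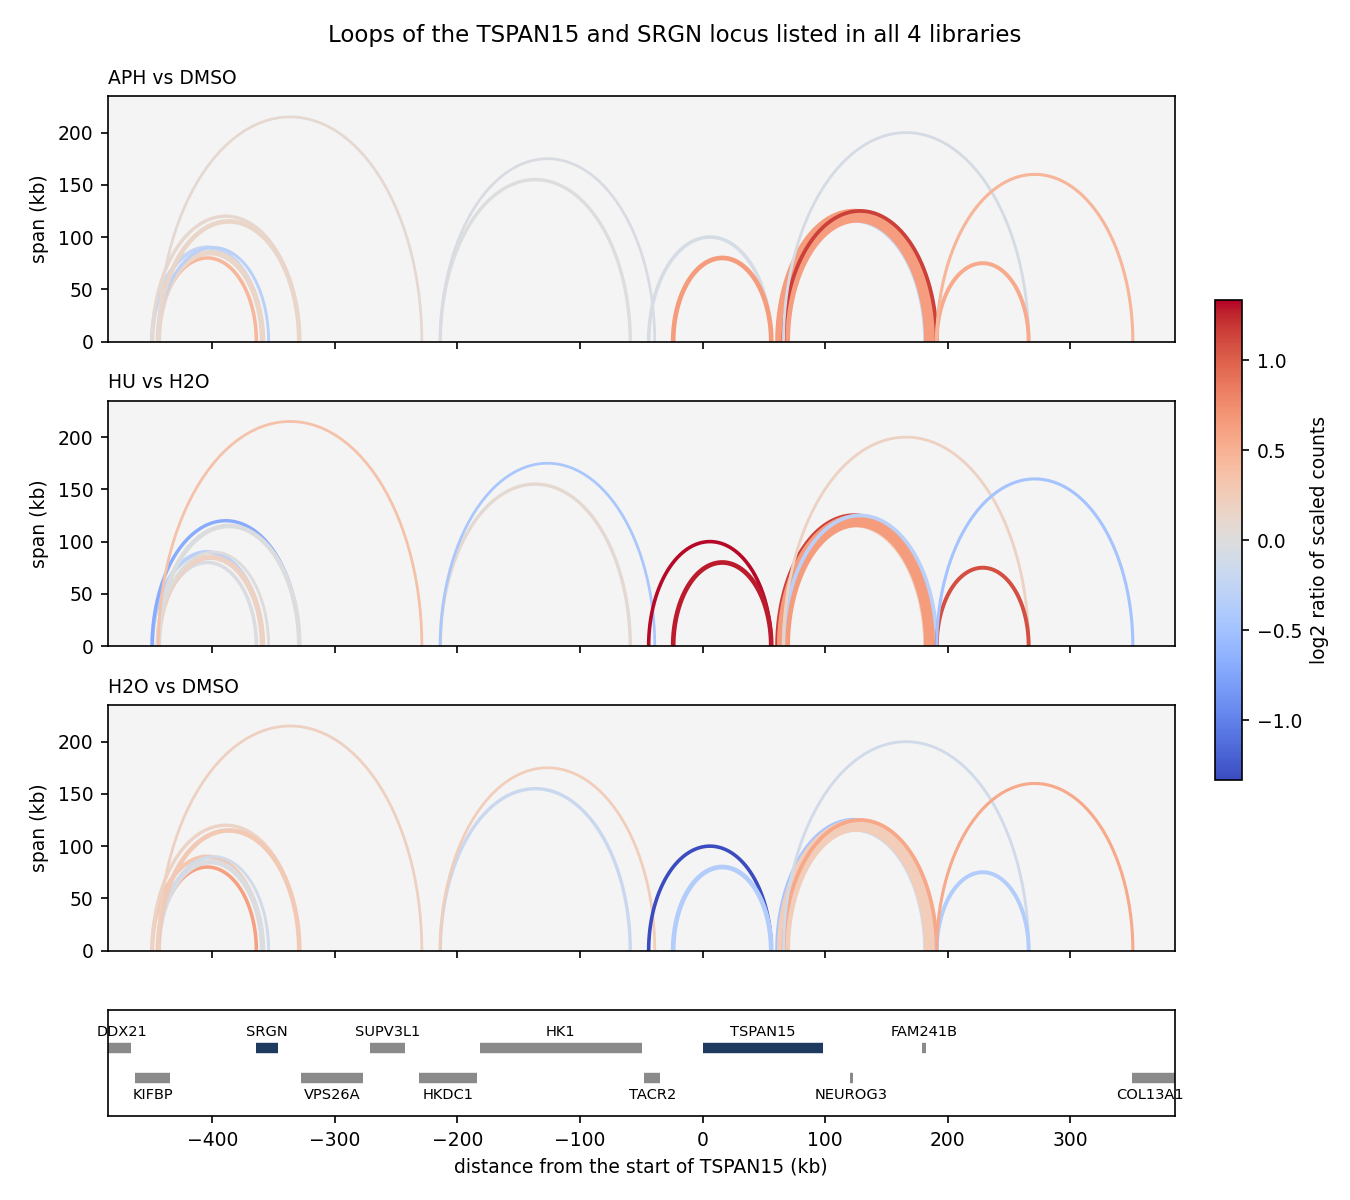
Arcs join the anchors of the 18 loops listed in all 4 libraries, placed by distance from the start of TSPAN15 (kb), with height giving the span (kb), width the total count and colour the log2 ratio of scaled counts. The 3 upper panels show APH vs DMSO, HU vs H2O and H2O vs DMSO, and the bottom one the protein-coding genes. The 4 arcs called higher in both drug panels have an end inside TSPAN15 or lie to its right.

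The loops of TSPAN15 carried more counts in both drug libraries than in both vehicles. Over its 7 loops the pooled counts were 239 in DMSO and 252 in H2O, against 437 in APH and 405 in HU. Per 100000 counts over the 9529 loops listed in all 4 libraries these were 79.6 and 77.4 in DMSO and H2O, and 116 and 126 in APH and HU. This total is the scaling of every ratio below. The drug libraries were both above the vehicles and the vehicles lay close together. The log2 ratio was 0.54 (0.31 to 0.78) for APH over DMSO and 0.70 (0.47 to 0.93) for HU over H2O, against -0.04 (-0.30 to 0.22) for H2O over DMSO. With the vehicles exchanged it was 0.58 (0.36 to 0.81) for APH and 0.66 (0.43 to 0.90) for HU. APH over HU gave -0.12 (-0.32 to 0.08). Scaled by all listed loops, which follows the longer APH list, the ratio for APH over DMSO was 0.17, and for HU over H2O 0.75.

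The loops of SRGN gave ratios near 0 in this scaling. Its 4 loops held 114 counts in DMSO and 140 in H2O, against 147 in APH and 136 in HU, or 38.0 and 43.0 per 100000 in the vehicles and 39.0 and 42.2 in the drugs. The libraries did not separate into drugs and vehicles, and the lowest and the highest value were both vehicles. The log2 ratio was 0.04 (-0.32 to 0.40) for APH over DMSO and -0.03 (-0.38 to 0.33) for HU over H2O. The counts leave room for shifts within these bounds, which cover counting error only. Scaled by all listed loops, SRGN stood at -0.34 for APH over DMSO, and with anchors matched within 1 bin at -0.70 for HU over H2O. In that matching an unlisted pair adds no counts, and HU listed fewer SRGN loops than H2O, so the listing enters the value. The count of TSPAN15 over that of SRGN, which needs no scaling between libraries, was 2.10 in DMSO and 1.80 in H2O, against 2.97 in APH and 2.98 in HU. As a log2 ratio of these ratios TSPAN15 stood above SRGN by 0.50 (0.07 to 0.94) for APH over DMSO and by 0.73 (0.30 to 1.15) for HU over H2O. The same quantity was -0.22 (-0.68 to 0.24) for H2O over DMSO. Over all 18 loops of the locus the counts were 499 in DMSO and 565 in H2O, against 795 in APH and 717 in HU, with ratios of 0.34 (0.18 to 0.51) and 0.36 (0.20 to 0.52). Scaled by all listed loops, the locus turned to -0.03 with APH. The 7 loops on neither gene gave 0.20 (-0.11 to 0.52) and 0.04 (-0.27 to 0.35).

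**Figure D2:**
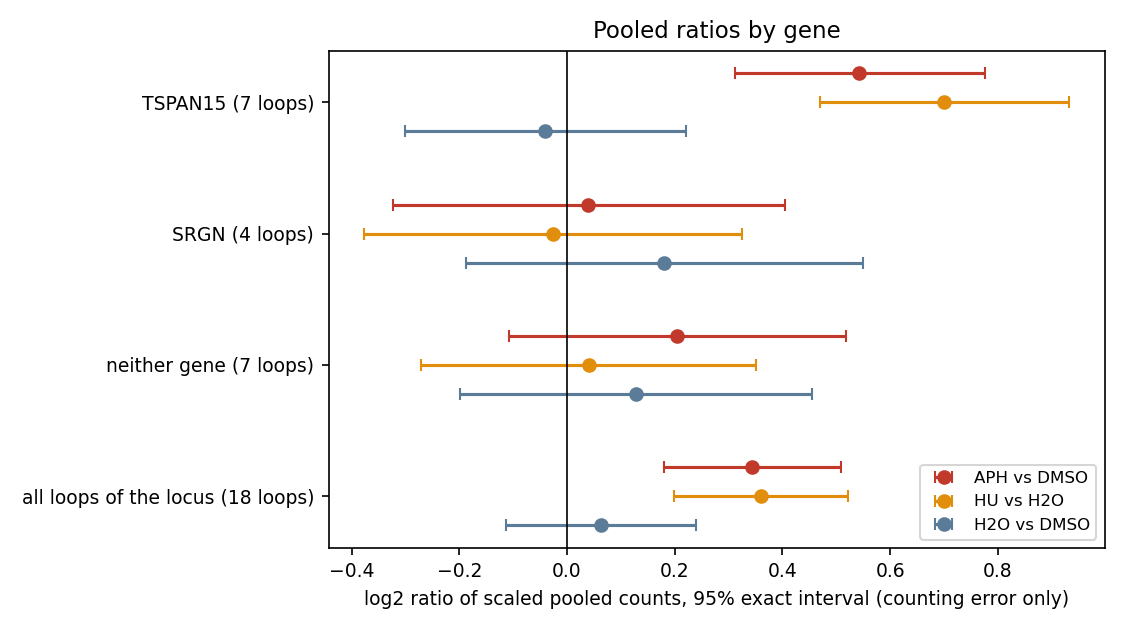
Points give the log2 ratio of scaled pooled counts for the loops on TSPAN15, on SRGN, on neither gene and over the locus, with 95% exact intervals of counting error as bars. For TSPAN15 the drug contrasts sit at 0.54 and 0.70 and the vehicles at -0.04, while all 3 intervals of SRGN include 0.

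One loop of TSPAN15 held more counts than any other. It spans 120 kb from inside the gene (69515001 to 69520000) to a bin (69635001 to 69640000) just past FAM241B. It had 105 counts in DMSO and 135 in H2O, against 205 in APH and 210 in HU, the most of any loop of the locus. Scaled to the mean library total these were 116 and 137 in the vehicles and 180 and 216 in the drugs, with the drugs above the vehicles and DMSO lowest. The log2 ratio was 0.64 (0.29 to 0.99) for APH over DMSO and 0.65 (0.33 to 0.98) for HU over H2O. The other 6 loops of the gene together gave 0.46 (0.15 to 0.78) and 0.75 (0.41 to 1.10), with H2O over DMSO at -0.31 (-0.68 to 0.06). They share anchors, and they include loops near 0 and a loop whose difference depends on the vehicle, given below. A loop of 125 kb from the neighbouring bin (69510001 to 69515000) to the same right end had 28 counts in DMSO and 22 in H2O, against 55 in APH and 48 in HU. Its ratios were 0.65 (-0.04 to 1.36) and 1.14 (0.39 to 1.94), with the first interval reaching 0.

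Another loop from the first of these anchors ended 1 bin further right (69640001 to 69645000), 125 kb away, and behaved otherwise in HU. It had 18 counts in DMSO and 29 in H2O, against 50 in APH and 23 in HU. APH stood highest and HU lay between the vehicles. The ratio of 1.15 (0.34 to 2.01) was the highest of the 18 loops for APH over DMSO, and that for HU over H2O was -0.32 (-1.17 to 0.52). The loop of 115 kb to FAM241B itself had 12, 13, 12 and 14 counts in DMSO, APH, H2O and HU, and the loop of 200 kb to the bin at 69715001 had 16, 19, 16 and 18 in that order, which also holds below. These values lie near the lowest listed count of 12, and their intervals included 0 in each drug contrast.

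To the left, TSPAN15 met TACR2, the gene of a neurokinin receptor, and the stretch between the genes. The loop of 80 kb from the bin at 69425001, on no gene, to the bin at 69505001 had 30 counts in DMSO and 25 in H2O, against 59 in APH and 60 in HU. The drugs were above the vehicles, at 0.65 (-0.01 to 1.33) for APH over DMSO and 1.28 (0.58 to 2.01) for HU over H2O. The loop of 100 kb from TACR2 to the same bin had 30 counts in DMSO and 13 in H2O, against 36 in APH and 32 in HU. Here H2O alone stood apart, at -1.32 (-2.39 to -0.34) against DMSO. The ratio of 1.32 (0.35 to 2.37) for HU over H2O, the highest of the 18 loops in that contrast, became -0.01 (-0.77 to 0.76) for HU over DMSO. APH over DMSO was -0.06 (-0.80 to 0.68), so the difference at this loop depends on the vehicle. Pooled over both left loops, H2O over DMSO was -0.78 (-1.40 to -0.17), APH over DMSO 0.34 (-0.15 to 0.83) and HU over DMSO 0.52 (0.03 to 1.01). Over the 5 loops to the right, the vehicles gave 0.14 (-0.15 to 0.44), APH over DMSO 0.61 (0.34 to 0.88) and HU over H2O 0.56 (0.31 to 0.82).

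**Figure D3:**
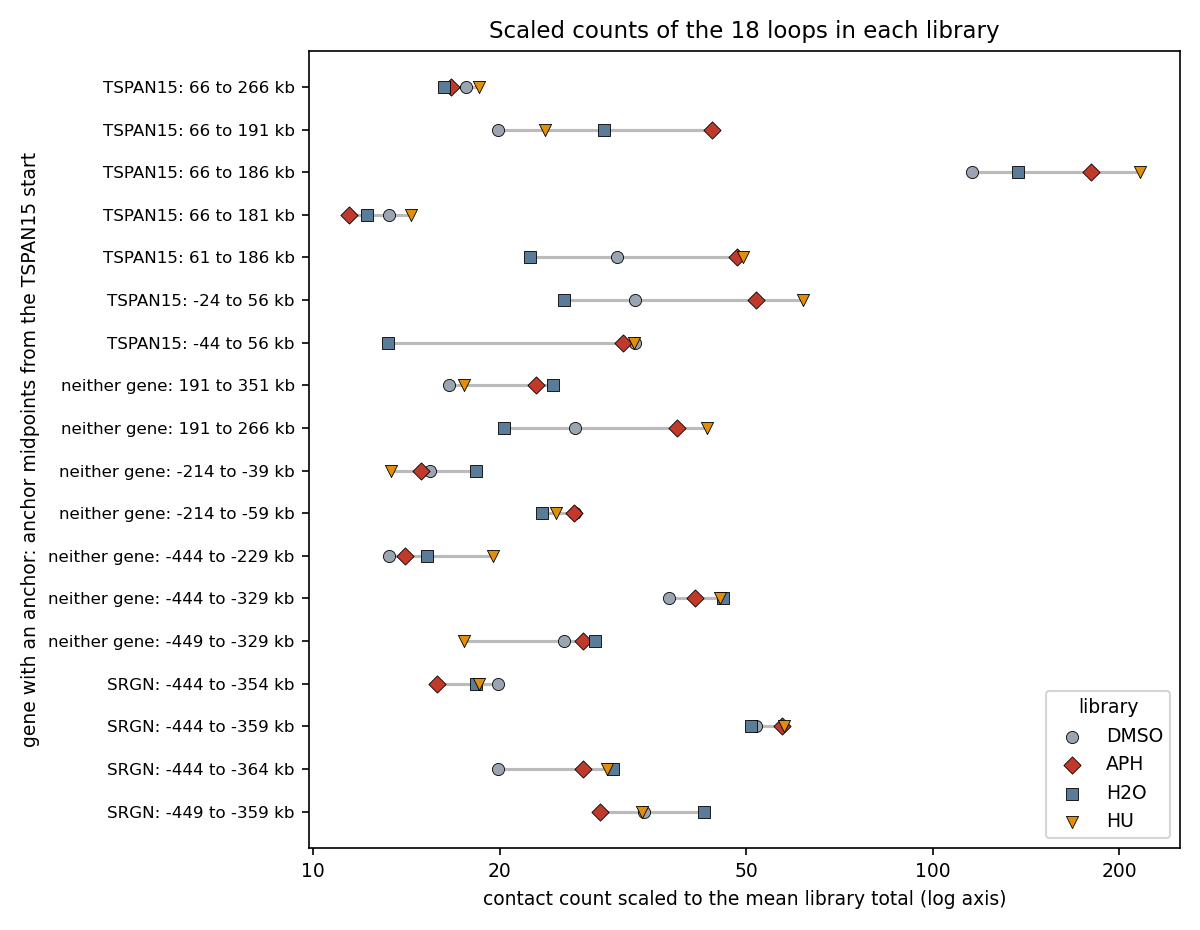
Points give the contact count of each of the 18 loops in the 4 libraries, scaled to the mean library total, on a log axis. Rows are named by the gene with an anchor and the distance of both anchors from the start of TSPAN15 (kb). In the loop with most counts DMSO lies at 116, H2O at 137, APH at 180 and HU at 216, and H2O lies alone at the low end of the loop from TACR2.

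The 4 SRGN loops spanned 80 to 90 kb. The strongest, from the KIFBP bin at 69005001 to the SRGN bin at 69090001, had 47 counts in DMSO and 50 in H2O, against 65 in APH and 56 in HU, with ratios of 0.14 (-0.42 to 0.71) and 0.18 (-0.40 to 0.76). In this loop the drugs were above the vehicles after scaling, by less than the counting error. The loop from the next KIFBP bin to the left had 31, 33, 42 and 33 counts, with ratios of -0.24 (-0.99 to 0.52) and -0.33 (-1.04 to 0.36). The loop to the bin that holds the start of SRGN, at 69085001, had 18, 31, 30 and 29 counts, with DMSO low, and that to the bin at 69095001 had 18 counts in every library. The latter gave -0.33 (-1.35 to 0.70) for APH over DMSO, the lowest ratio of the 18 loops in that contrast. KIFBP also met VPS26A, a gene of the retromer that sorts endosomal cargo, over 115 kb, with 34, 47, 45 and 44 counts in DMSO, APH, H2O and HU. A loop of 120 kb between the same genes had 23, 31, 28 and 17 counts, and its ratio of -0.70 (-1.67 to 0.22) for HU over H2O was the lowest of that contrast.

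Among the 18 loops, a scaled count at least 25% above that of the vehicle was counted as called higher and one at least 20% below it as called lower. For APH over DMSO 7 were called higher and 1 lower, where 19.3% and 23.6% of all 9529 loops were. For HU over H2O 6 were called higher and 4 lower, against 21.4% and 23.1% of all loops. For H2O over DMSO 3 were called higher and 4 lower, against 17.8% and 18.2%. In both drug contrasts 4 of 18 were called higher, where 6.72% of all loops were. Since these contrasts chose the locus, nothing is read from the counts. These 4 loops are the loop with most counts, its neighbour of 125 kb from 69510001, the loop from 69425001, and a loop on neither gene. With the vehicles exchanged the same 4 loops were called, and scaled by all listed loops none was. In 5 of the 18 loops, 3 of them on TSPAN15 and 1 on SRGN, both drug libraries lay above both vehicles, against 19.9% of all loops. In 2 both lay below, against 22.2%.

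The loop on neither gene that was called in both joins the bins at 69640001 and 69715001, 75 kb apart, and so continues from the right end of the TSPAN15 loops. It had 24 counts in DMSO and 20 in H2O, against 44 in APH and 42 in HU. Its ratios were 0.55 (-0.20 to 1.33) and 1.09 (0.29 to 1.93). From the same left bin a loop of 160 kb reached COL13A1, which encodes a collagen of the cell membrane, with 15, 26, 24 and 17 counts. There APH and H2O lay above DMSO and HU, so drugs and vehicles did not separate. On the other side of TSPAN15, HKDC1, a hexokinase-like gene, met HK1, the gene of a hexokinase, with 24, 30, 23 and 24 counts and TACR2 with 14, 17, 18 and 13. Those 2 loops pooled gave -0.02 (-0.67 to 0.64) for APH over DMSO and -0.13 (-0.81 to 0.54) for HU over H2O.

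Of 13 protein-coding genes that touch the window, 8 carried a loop listed in all 4 libraries. Of these TSPAN15 alone was called higher in both drug contrasts, as were 4.91% of 4831 such genes over all chromosomes. The locus was picked as higher under both drugs, so nothing is read from this call. Scaled by all listed loops, TSPAN15 stood at 0.17 for APH over DMSO and was not called. Divided by the expected counts, it was called in neither contrast, at 0.07 and 0.24. KIFBP with 7 loops stood at 0.07 (-0.21 to 0.35) for APH over DMSO and -0.06 (-0.34 to 0.21) for HU over H2O. Its loops are those of SRGN, those to VPS26A and a loop to HKDC1. HK1 shares its loop with HKDC1, FAM241B with TSPAN15, and TACR2 shares loops with HKDC1 and TSPAN15. The values of these genes are thus not independent. HKDC1 stood at 0.01 and 0.02, HK1 at -0.01 and 0.08, and VPS26A at 0.12 and -0.24, with intervals that included 0. TACR2 stood at -0.06 (-0.66 to 0.55) and 0.55 (-0.14 to 1.26), and with the vehicles exchanged at 0.56 and -0.07, with H2O at -0.62 against DMSO. FAM241B had a single loop of 51 counts in all. NEUROG3, a transcription factor gene of endocrine pancreas between TSPAN15 and FAM241B, carried no loop in any list, nor did SUPV3L1 or DDX50. With the rule of 250 kb applied to every gene, TSPAN15 gave 0.47 and 0.58 over 12 loops and SRGN 0.05 and -0.07 over 9, and 2.64% of 15509 genes were called higher in both. Among 3834 genes with at least 100 counts over the 4 libraries, TSPAN15 ranked 156 from the top for APH over DMSO and 140 for HU over H2O, so many genes had higher ratios.

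**Figure D4:**
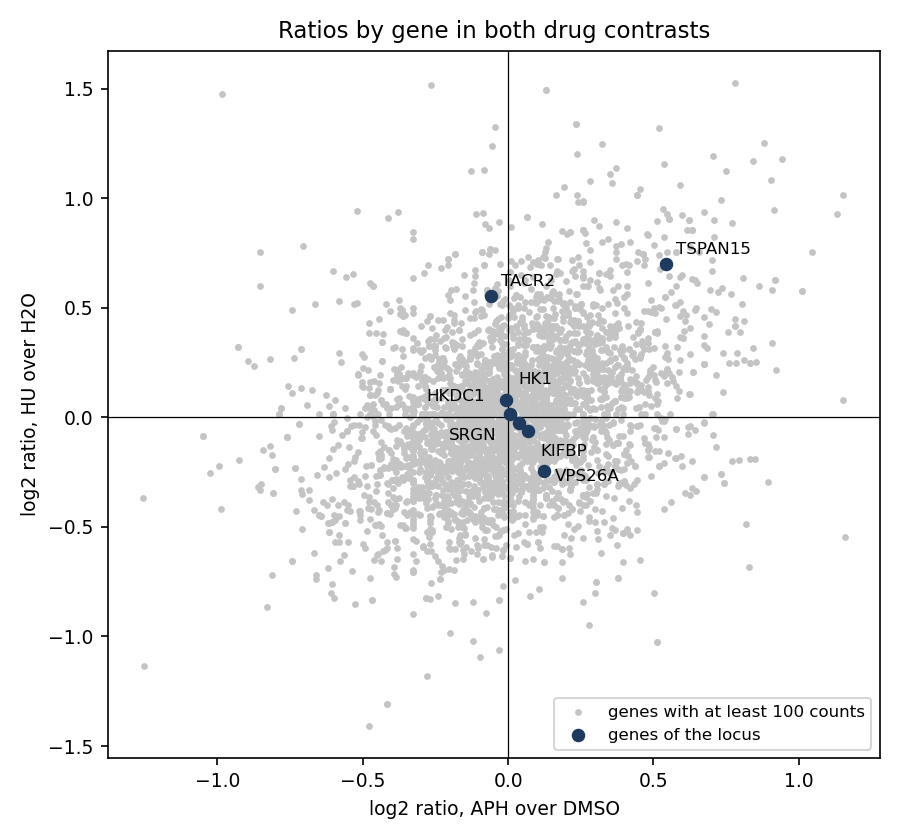
Each point is a gene with at least 100 counts over the 4 libraries, by the log2 ratio of its pooled scaled counts for APH over DMSO (horizontal) and HU over H2O (vertical). TSPAN15 lies at 0.54 and 0.70, TACR2 at -0.06 and 0.55, and the other named genes of the locus near 0 within -0.24 to 0.12.

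The 2000 kb on either side of the TSPAN15 start were cut into steps of 250 kb by the midpoint of the loop. Intervals lay above 0 in both drug contrasts in 1 step, that with the TSPAN15 loops. Its loops are among those whose counts chose the locus, so nothing is read from this. Scaled by all listed loops, that step gave 0.17 for APH over DMSO and 0.78 for HU over H2O. The step from 0 to 250 kb right of the TSPAN15 start, with 8 loops, gave 0.54 (0.32 to 0.77) for APH over DMSO and 0.73 (0.51 to 0.96) for HU over H2O. The step to its left, with 2 loops, gave -0.02 (-0.67 to 0.64) and -0.13 (-0.81 to 0.54). The step from 250 to 500 kb held 1 loop, at 0.47 (-0.50 to 1.49) and -0.48 (-1.47 to 0.48). From 750 to 1000 kb the ratios were 0.02 (-0.32 to 0.36) and -0.14 (-0.46 to 0.18) over 6 loops, and from 1000 to 1250 kb -0.05 (-0.31 to 0.21) and 0.05 (-0.21 to 0.31) over 7. Further right, 1 loop from 1500 to 1750 kb stood at -0.58 (-1.39 to 0.22) and 0.15 (-0.59 to 0.88). The 5 loops from 1750 to 2000 kb stood at -0.40 (-0.78 to -0.02), below 0 with APH, and at 0.21 (-0.16 to 0.58) with HU. The first loops outside the window on the right, which begin at 70220001, stood at -0.18 and -0.36 for APH over DMSO and at 0.23 and -0.13 for HU over H2O. The last inside it, at 69640001, stood at 0.55 and 0.47, and at 1.09 and -0.48. On the left the loop that begins at 68210001 was the nearest outside, at 0.33 and -0.31.

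**Figure D5:**
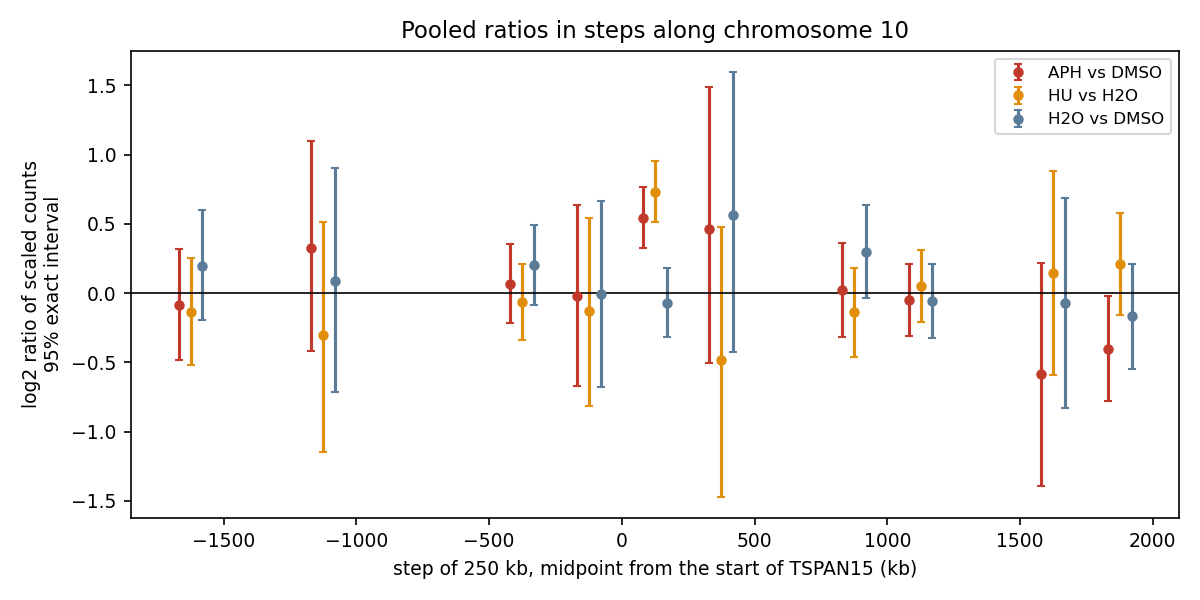
Points give the log2 ratio of pooled scaled counts in steps of 250 kb along chromosome 10, by distance from the start of TSPAN15 (kb), with 95% exact intervals as bars and steps without a loop left out. The step from 0 to 250 kb lies at 0.54 with APH and 0.73 with HU, with H2O vs DMSO at -0.07.

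Both drug lists held more TSPAN15 loops than both vehicle lists. Of 17 loops with an anchor on the gene in any library, DMSO listed 8, APH 14, H2O 10 and HU 13. Of 21 on SRGN, DMSO listed 12, APH 10, H2O 13 and HU 7. A list also grows with its total, which was 17660 loops in DMSO and 22446 in H2O, against 27395 in APH and 21448 in HU, and an unlisted pair is not a measured 0. Loops listed in both drugs and neither vehicle were 2 of 17 at TSPAN15, from the bins at 69420001 (15 counts in APH, 20 in HU) and 69445001 (15 and 14) to that at 69505001. None of the 21 at SRGN was of this kind, against 5.69% of all loops. Loops listed in both vehicles and neither drug were 2 of 21 at SRGN, from the bins at 69015001 (14 counts in DMSO, 16 in H2O) and 69025001 (14 and 15) to that at 69090001. None at TSPAN15 was of this kind, against 2.03% of all loops. All these counts lie close to the lowest listed count of 12.

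The lists also give a count expected by the loop caller. It comes from the same contrasts that chose the locus, so its values are a description too. It differed between TSPAN15 loops, also between those of 1 anchor. For the loop with most counts it was 5.20 in DMSO and 4.96 in H2O, against 10.8 in APH and 8.05 in HU. For the loop of 75 kb on neither gene it was 2.96 and 3.06 in the vehicles, and 5.07 and 5.13 in the drugs. The vehicles lay close to each other and the drugs above them at both. Scaled by its total over the 9529 loops, the expected count was at least 25% higher in both drug contrasts for 4 of the 18 loops, 3 of them on TSPAN15 and none on SRGN, against 1.47% of all loops. The 3 share the anchor at 69515001, and the loop of 115 kb from that anchor was not among them, at log2 ratios of the scaled expected count of -0.05 and -0.17. The left loops stood at 0.40 and 0.16 (80 kb) and at 0.25 and 0.19 (100 kb). One of the 3 that share the anchor at 69515001 is the loop of 200 kb to the right. Its expected count was 2.54 in DMSO and 4.78 in APH, and 2.62 in H2O and 4.60 in HU. Its contact counts were 16, 19, 16 and 18 in the order DMSO, APH, H2O, HU. Of the 4 loops called higher in both by contact count, 2 were also so by expected count, and the loop from 69510001 was not, at 1.46, 1.68, 1.66 and 1.66. The contact count over the expected count, pooled over the 7 TSPAN15 loops, was 10.4 in DMSO and 10.6 in H2O, against 11.2 in APH and 12.5 in HU. Relative to all loops, this leaves a log2 ratio of 0.07 for APH over DMSO and 0.24 for HU over H2O, in place of 0.54 and 0.70. For SRGN the same quantity was 0.04 and -0.25. What the expected count is made from is not given in the sources used here, and its part in the difference was not tested.

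Ratios were also set beside loops of the same span, since span moved with the drugs over the whole series. Loops of 100 to 250 kb, the class of 6 of the 7 TSPAN15 loops, stood at -0.04 (-0.05 to -0.03) for APH over DMSO and -0.06 (-0.07 to -0.05) for HU over H2O over 3985 loops. The 6 TSPAN15 loops of this class stood at 0.53 (0.28 to 0.78) and 0.62 (0.37 to 0.87). All 4 SRGN loops were under 100 kb, where 4061 loops gave 0.08 and 0.08, within the intervals of SRGN.

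Genes with the pattern most like that of TSPAN15 were sought among 3827 with at least 100 counts and no shared loop, by the distance between log2 levels centred over the 4 libraries. The nearest were CCL1, a chemokine gene on chromosome 17 (distance 0.037), ATG2B, an autophagy gene on chromosome 14 (0.079), MCHR1, a neuropeptide receptor gene on chromosome 22 (0.081), DIXDC1 (0.090) and TSKU (0.097), both on chromosome 11. CCL1 had 51 counts in DMSO and 55 in H2O, against 92 in APH and 87 in HU over 2 loops. The likeness rests on 4 libraries.

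Of 33 tetraspanin genes 10 had a loop in all 4 libraries, TSPAN15 among them. Of the other 9, 2 were called higher and 1 lower with APH, where 14.4% and 15.9% of all 4831 genes were. With HU 4 of the 9 were called higher and 1 lower, against 17.7% and 16.4% of all genes. For H2O over DMSO 0 were called higher and 3 lower, namely TSPAN33, TSPAN9 and CD9, against 12.2% and 12.6%. The 9 had a median log2 ratio of -0.12 for APH over DMSO, 0.23 for HU over H2O and -0.18 for H2O over DMSO, against -0.02, 0.00 and 0.00 over all genes. TSPAN33, TSPAN9 and CD9 were also called higher for HU over H2O, while TSPAN19, called higher too, stood at 0.30 for H2O over DMSO. Both ratios hold the H2O count, and its part was not tested. TSPAN19, with 1 loop of 12, 22, 16 and 22 counts, was the other tetraspanin gene called higher in both (0.55 and 0.48, with intervals that include 0). TSPAN33, whose product also binds ADAM10, stood lowest with APH (-0.53) and at 0.66 with HU, where H2O over DMSO was -0.52. TSPAN14, another partner of ADAM10, stood at -0.01 and was lowest with HU (-0.39, -0.76 to -0.03). Of 13 genes listed around ADAM10, which include substrates and other tetraspanins, 5 were measured, with medians of -0.07 and -0.25. With APH 0 were called higher and 1 lower, and with HU 1 higher and 1 lower, few genes to set beside the shares of all genes above. These calls were all TSPAN33 and TSPAN14, already counted among the tetraspanins, and no substrate gene was called. The substrate gene CDH1, which encodes E-cadherin, stood at -0.07 and -0.28.

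For serglycin, 2 of 17 cargo and receptor genes were measured, GZMH, a granzyme gene, at 0.19 and 0.16 and CD44, a receptor that binds serglycin, at -0.21 and -0.27. Of 27 genes that build its sugar chains 7 were measured, with medians of -0.05 and 0.02. With APH 1 was called higher and 1 lower, and with HU 2 were called higher and 0 lower, again few genes beside those shares. NDST1, a sulfotransferase gene, was highest with APH (0.33, and -0.25 with HU) and CHPF, a chondroitin polymerising factor gene, with HU (0.49, and 0.06 with APH). UST, also a sulfotransferase gene, was lowest with APH (-0.39) and stood at -0.19 with HU, where NDST1 was lowest. None of the 7 was called higher in both contrasts, as 4.91% of all genes were. As a check of the cell type, 11 of 12 B cell marker genes had an anchor in some list, against 4 of 7 T cell genes and 5 of 8 myeloid and erythroid genes. Of all 19970 protein-coding genes 47.4% had one, and loops do not measure expression.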

How the data were processed

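Per the labels' protocols, GM12878 chromatin was fixed with formaldehyde and EGS, processed with a Hi-C kit and precipitated for SMC1. Per the submitters' processing notes, bcl2fastq 2.17, MACS3 3.0.1 and build hg38 were used; no source used here names the aligner or the loop caller. For each library the authors deposited 1 loop list without a header, so columns were read from their values. The deposited contact counts are whole, at least 12 and not normalized. A deposited fractional signal was read as the expected count of the caller, since every contact count is at least 2 times as high. The deposited adjusted p-value, cluster score and other cluster columns were not used.

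Totals over the loops listed in all 4 libraries were 300320 (DMSO), 376948 (APH), 325634 (H2O) and 322048 (HU); they hold 51.4% to 66.8% of the listed counts, and read depth is unknown. Counts were scaled by these totals with no pseudocount. Ratios on the log2 scale have 95% exact conditional binomial intervals, too narrow where PCR copies were counted. No p-value was computed. Genes came from a RefSeq table of GRCh38.p14. Named genes are TSPAN15, SRGN, neighbours with or without a loop, and list members called in both contrasts or highest or lowest; named loops are those on the 2 genes, the strongest, highest and lowest. Loops on neither gene, TSPAN9, CD9, CDH1, GZMH and CD44 are named beyond this rule. Members and lists were chosen with earlier results of these data known. Python 3.11.15, numpy 2.4.6, pandas 2.3.3, scipy 1.17.1 and matplotlib 3.10.9 were used, and the steps were tested on simulated data. Alternatives covered scaling, vehicle, count minimum, span, expected counts, matching of bins, window and single loops.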

Additional observations from a re-analysis of the deposited data

How the results depend on the processing

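Of 201 values under alternatives, 180 stayed within the counting interval of the main value (or within 1.5 times a count). This tally does not measure robustness. It includes neighbouring genes with wide intervals, such as FAM241B, where a main value of -0.21 and an alternative of 0.63 for APH over DMSO counted as within. Windows of 100 and 500 kb took in the same shared loops as the main window. The locus value of 0.34 for APH over DMSO could therefore not change, and these windows say nothing of its stability. Division by the expected count gave the locus 0.16 for APH over DMSO and 0.050 for HU over H2O, and TSPAN15 0.074 and 0.24. Scaling by all listed loops, which moves each ratio by -0.38 for APH over DMSO and 0.05 for HU over H2O, turned the locus to -0.033 for APH over DMSO; it gave TSPAN15 0.17, SRGN -0.34 and the step right of the TSPAN15 start 0.17, left 1 loop called higher with APH in place of 7, and 0 called in both in place of 4. Anchors matched within 1 bin gave 0.17 for the locus and -0.70 for SRGN in HU over H2O. This matching sums the listed loops of a place, and an unlisted pair adds 0, although it is not a measured 0. H2O listed 13 SRGN loops with 358 counts and HU 7 with 226, so the listing enters these values. The listing counts of 2 and 2 went to 1 for drugs and 0 for vehicles in this matching. Both went to 0 with at least 24 counts. At a ratio of at least 1.5, 4 loops were higher with APH, and 2 had an interval that excludes 1. Over 11 alternatives each, TSPAN15 stayed above 0, at 0.074 to 0.63 with APH and 0.24 to 0.82 with HU. The value of 0.82 came from matching within 1 bin. Leaving out each TSPAN15 loop in turn gave 0.46 to 0.61 and 0.62 to 0.79. No paired analysis was possible because each group has 1 library, and for the same reason no replicate could be left out.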
